A study of Zea mays with 10 samples.

Results

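The comparison set the maize line 9d9a against a pair of related lines, id1 and id4, in leaf and root, and asked where along the 10 chromosomes the amount of small RNA differed. The lines are named for alleles of p1: 9d9a carries P1-vv9d9a, id1 carries P1-wwid1 and id4 carries P1-wwid4. All were 14-day-old seedlings grown in a chamber with a light and dark cycle, and the leaf libraries bear the tissue label seedling. The members were chosen by line and tissue, and no measured value was used: the 9d9a leaf and root libraries formed one side, the id1 and id4 leaf and root libraries the other, and B73 was left out of the comparison. That gave 6 of the 10 libraries of the series, with 1 library per line and tissue, and 20583 of its 20584 windows of 100 kb. The labels do not say whether a library came from 1 plant or several, nor how closely the lines are related outside p1, so differences at p1 and in the rest of the genetic background cannot be told apart.

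The product of p1, a gene of chromosome 1, is a transcription factor of the Myb family that switches on red phlobaphene pigment in the pericarp and cob. In an allele name the first letter stands for the pericarp and the second for the cob: ww is colourless in both and vv is variegated in both, the classic vv allele being interrupted by the transposon Ac. Most small RNAs of a maize seedling are short interfering RNAs made from transposons and other repeats, where they guide DNA methylation, beside microRNAs and phased small RNAs from single loci. A count over 100 kb adds all of these together. Reads were matched to 1 reference sequence, so a window's count also depends on how far a line's sequence matches that reference; sequence differences between the lines and this reference were not measured, and their part in the results below was not tested.

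The 6 libraries held 8472011 to 11290129 reads in windows, and the median window 229 to 306 reads, which is a counting error of 6.60% to 5.71%. Windows are named by the start, in Mb, that the deposited tables give; no source used here names the genome build, and windows were not placed in genes. The tissue labels could not be checked with marker genes. The scaled median absolute deviation of the log2 difference over windows was 0.20 to 0.27 between lines within a tissue and 0.29 to 0.37 between the tissues of a line. The SD of the same differences, which gives more weight to the windows farthest apart, did not separate them, at 0.37 to 0.49 and 0.34 to 0.43. No library was a copy of another, since the closest pair, the leaf libraries of 9d9a and id4, had a chi-square of 9.34 for each degree of freedom, where sampling noise alone gives about 1.

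Over most of the genome 9d9a did not stand apart from id1 and id4. Levels are given in CPM, reads per 1000000 of a library's TMM-adjusted size. On a log2(CPM + 1) scale the 9d9a level minus the mean of id1 and id4 had a median of 0.00 in leaf and in root across the 20478 windows that averaged 5 reads or more. It lay within 0.3 of 0 in 81.8% of windows in leaf and 77.2% in root. A difference between single lines is the like measure for id1 minus id4, which lay within 0.3 in 79.4% and 71.6%. For 9d9a minus id1 the shares were 78.9% and 69.5%, and for 9d9a minus id4 they were 77.9% and 75.9%. On most windows 9d9a was thus about as near to each id line as these were to each other. More than 2-fold differences in leaf were found at 262 windows higher and 218 lower in 9d9a. Of these 480 windows, 475 had the same direction in root and 384 were also beyond 2-fold there. Across all 20478 windows, Pearson's r between the leaf and root differences was 0.71, as a description of windows that share their lines and reference and are not independent replicates. It was 0.69 for id1 minus id4, so leaf and root also went together in the difference between the id lines.

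Windows were tested with edgeR's quasi-likelihood test with tissue as a covariate and id1 and id4 as the 2 replicate lines of their side, so that a window at which id1 and id4 differed carried that spread as error. The leaf and root libraries of a line entered as independent although they share the line, so the p-values can be too small. With 1 tissue at a time the same test called 46 windows higher and 102 lower in leaf, and 46 and 124 in root. At a Benjamini-Hochberg adjusted p of 0.05, 114 windows were higher in 9d9a (0.562% of 20281 tested) and 256 were lower (1.26%). The median log2 change was 1.28 among the 114 and -1.16 among the 256, and 69 and 151 of them were beyond 2-fold. In all 370 windows the 9d9a library lay beyond both id libraries in both tissues; over all tested windows 9d9a lay above both in 15.0% and below both in 15.0%. Called windows were fewer at low levels, with 0.368% of windows under a mean of 2 CPM, 1.29% from 2 to 10, 2.22% from 10 to 50 and 2.01% over 50. With 1 line on the 9d9a side, the p-values reflect how much these 6 libraries varied. The counts rest on both 9d9a libraries: 34 of the higher and 111 of the lower calls remained without the 9d9a leaf library, and 37 and 99 without the 9d9a root library.

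The calls were gathered on chromosomes 1 and 7. Chromosome 1 held 69 of the windows that were higher in 9d9a and 102 of those that were lower, and chromosome 7 held 11 and 124. Each of the other 8 chromosomes had at most 14 calls. On chromosome 7, 7.16% of tested windows were lower in 9d9a, and on chromosome 1, 3.44% were lower and 2.32% higher. On the others the share called in any 1 direction did not exceed 0.470%.

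In 5 Mb blocks the differences ran in long stretches. Of 412 blocks, 8 lay higher in 9d9a and 9 lower by a median of at least 0.3 in both tissues and on the same side of each id line. They joined into 8 stretches. Chromosome 1 had higher stretches at 55 to 65 and 70 to 90 Mb, chromosome 2 had one at 15 to 20 Mb, and chromosome 10 had one at 140 to 145 Mb. The lower stretches were 225 to 245 Mb of chromosome 1 and, all within chromosome 7, 10 to 25, 90 to 95 and 100 to 105 Mb. No p is given for blocks, since neighbouring windows are not replicates. The stretches were drawn from the same libraries as the window tests, so the share of calls inside them is a description. The blocks were chosen by their medians, so counts of windows beyond both id lines in a stretch partly follow from that choice. Of the 370 calls, 206 lay in the 837 tested windows of the stretches (24.6%). A further 30 lay in the 291 tested windows at 25 to 55 Mb of chromosome 1 (10.3%), a span chosen after seeing the data. The other 19153 windows held 134 (0.700%).

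**Figure D1:**
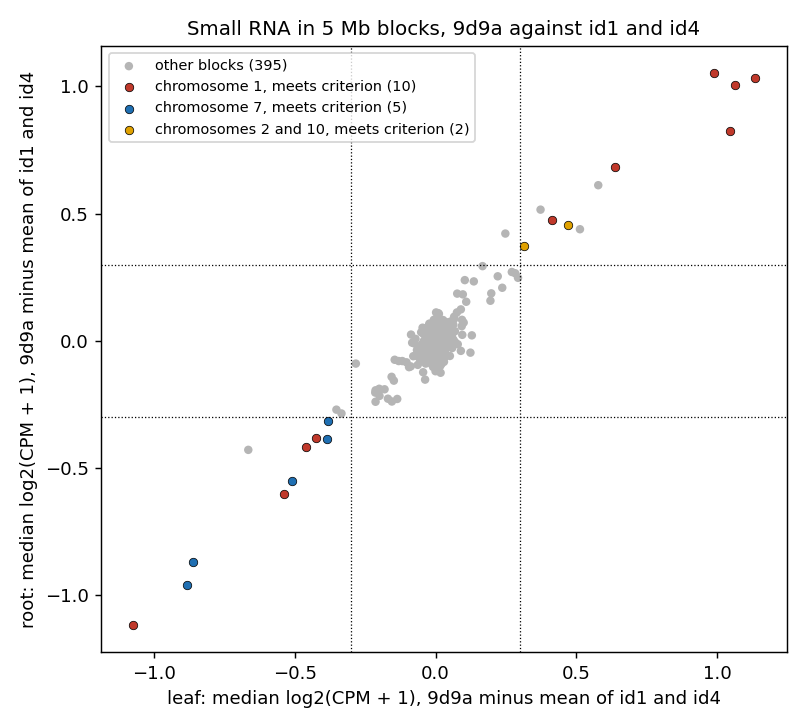
Median difference of 9d9a from the mean of id1 and id4 in each of 412 blocks of 5 Mb, on the log2(CPM + 1) scale, in leaf (horizontal axis) and root (vertical axis). Dotted lines mark 0.3 in either direction; the 17 coloured blocks meet the criterion and all lie near the diagonal, and most other blocks sit close to 0.

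Close to p1, 4 neighbouring windows were called lower in 9d9a. The first, which ends at 48.2 Mb of chromosome 1 and lies close to the position taken for p1 from general knowledge (about 48 Mb), is called the p1 window here. It held 33.7 CPM in 9d9a leaf and 25.7 in 9d9a root. In id1 the leaf library held 1264 CPM and the root library 498, and in id4 they held 957 and 479. Both id lines were far above 9d9a in both tissues, and the groups did not overlap. The log2 change was -4.63 ± 0.27 (SE; edgeR adjusted p = 0.000749), and in B73, which took no part in the test, the window held 24.3 CPM in leaf and 20.3 in root. This window was known from an earlier account of these data. Without the id1 root library its adjusted p was 0.087 with a log2 change of -4.68, and over all alternatives the adjusted p ran from 1.12e-98 to 0.087.

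The 3 windows that follow differed less. At 48.2 Mb the 9d9a libraries had 56.9 CPM (leaf) and 54.2 (root), id1 had 124 in both tissues, and id4 had 108 and 107. At 48.3 Mb 9d9a had 49.2 and 45.6 CPM, id1 83.3 and 85.7, and id4 84.4 and 80.8. At 48.4 Mb 9d9a had 14.9 and 20.9 CPM, id1 31.7 and 44.4, and id4 28.8 and 38.0. In each of them both id lines lay above 9d9a by a similar factor in leaf and root, and B73 was near 9d9a, with 54.6, 41.0 and 17.4 CPM in leaf. The log2 changes were -1.06 ± 0.10, -0.82 ± 0.09 and -1.0 ± 0.12 (SE), with edgeR adjusted p of 0.000739, 0.00131 and 0.00205. These windows were named after their values were seen. The window just before the p1 window, from 48 Mb on, also had 9d9a below both id lines in both tissues, with 33.4 and 32.5 CPM against 63.9 to 112, but id1 and id4 differed there in root and it was not called (log2 -1.30 ± 0.26, edgeR adjusted p = 0.151). No other window from 47 to 52 Mb was called. Over 48 to 51 Mb, a span chosen after seeing the data, the median of 9d9a minus id1 was -1.02 in leaf and -1.01 in root. That of 9d9a minus id4 was -0.07 and -0.06, so that across these 3 Mb 9d9a lay near id4 and below id1.

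Farther along the chromosome the direction turned. The span from 53 to 55 Mb was chosen after seeing the data. Its summed level was 878 CPM in 9d9a leaf and 876 in root, against 195 and 191 in id1 and 258 and 262 in id4. B73, which took no part in the comparison, held 880 CPM in leaf and 1004 in root, near 9d9a and above both id lines. Of its 20 windows, 12 were called higher in 9d9a, and 18 lay above both id lines in both tissues. Over all tested windows these shares were 0.562% and 15.0%. The window at 54.4 Mb had 21.1 CPM in 9d9a leaf and 20.4 in root, where id1 had 1.38 and 1.15 and id4 had 0.72 and 1.46 (log2 4.12 ± 0.21 SE, edgeR adjusted p = 2.21e-05). At 53.7 Mb 9d9a had 41.2 and 46.5 CPM, id1 2.07 and 2.82, and id4 2.79 and 3.29 (log2 4.0 ± 0.15, edgeR adjusted p = 5.76e-06). The id values at both windows rest on few reads, 7 to 16 per library at 54.4 Mb and 21 to 36 at 53.7 Mb. B73 lay with 9d9a at both, with 21.8 CPM in leaf and 20.9 in root at 54.4 Mb and 44.5 and 55.4 at 53.7 Mb.

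Of the 10 windows most raised in 9d9a, 7 were in these 2 Mb, 2 were at 57.2 and 58.0 Mb and 1 was at 38.9 Mb, all on chromosome 1. At each of the 10, B73 lay nearer to 9d9a than to either id line in both tissues. At 57.2 Mb 9d9a had 86.4 CPM in leaf and 93.7 in root, id1 6.42 and 7.85, and id4 9.11 and 12.5 (log2 3.34 ± 0.20, edgeR adjusted p = 0.000406). The other 5 at 53 to 55 Mb, at 53.9, 54.0, 54.6, 54.7 and 54.8 Mb, had 13.9 to 54.0 CPM in the 9d9a libraries and 1.48 to 5.67 in the id libraries, with log2 changes of 2.49 to 3.85. At 38.9 Mb the 9d9a libraries had only 37 and 17 reads and the id libraries 2 to 8 (log2 2.66 ± 0.49). Some of these calls hang on single libraries. Without the 9d9a leaf or the 9d9a root library the calls were lost at 53.9 Mb (log2 3.75 and 3.37), 54.6 Mb (3.67 and 4.05), 58.0 Mb (2.52 and 2.40) and 38.9 Mb (1.79 and 3.38). The call at 54.6 Mb was also lost without id1 root (3.69) or id4 leaf (4.09), that at 58.0 Mb without id1 root (2.41), and that at 38.9 Mb without id1 leaf (2.35), id1 root (2.51) or id4 leaf (2.59).

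**Figure D2:**
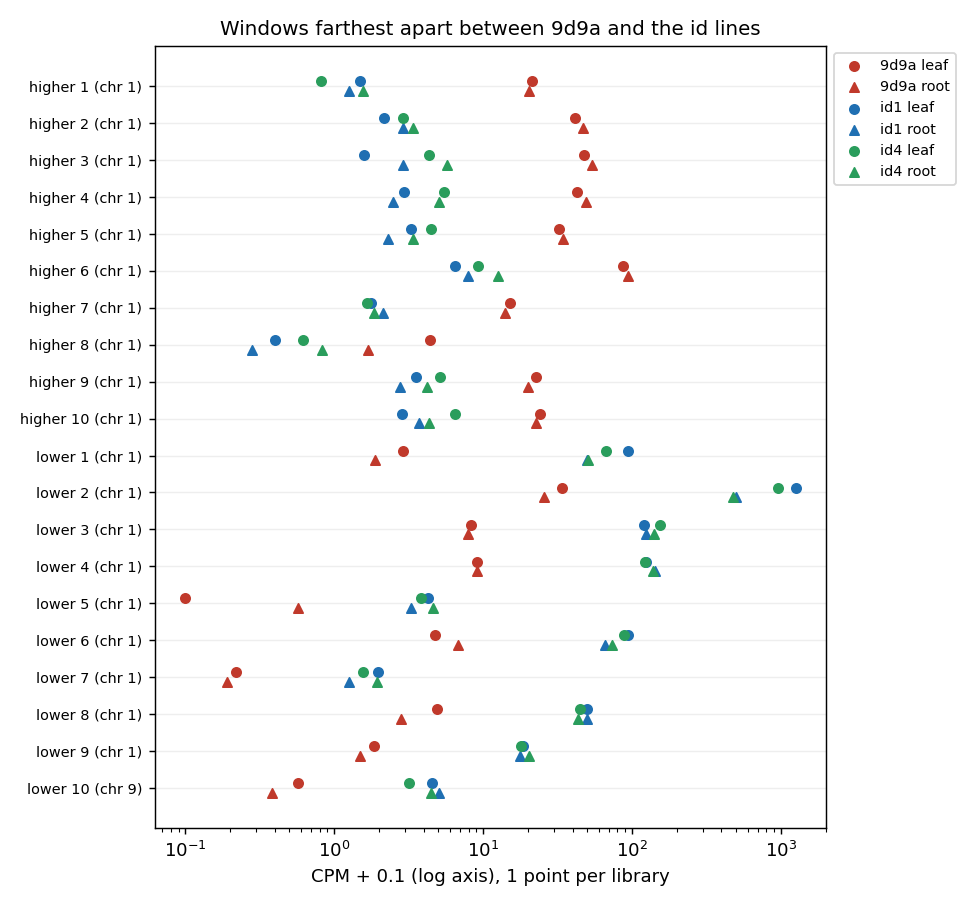
Level of the 10 windows most raised and the 10 most lowered in 9d9a, in order of the log2 change, as CPM + 0.1 on a log axis with 1 point per library (circles leaf, triangles root). The windows were chosen to have 9d9a beyond both id lines in each tissue, so that separation follows from the choice.

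Over the stretch at 55 to 65 Mb of chromosome 1 the summed level was 4814 CPM in 9d9a leaf and 4878 in root. It was 2610 and 2629 in id1 and 2838 and 2719 in id4, so that both id lines lay well below it. The median window was 1.03 higher in leaf and 1.04 higher in root on the log2 scale. In this stretch 32 of 100 tested windows were called, all of them higher in 9d9a, and 70 lay above both id lines in both tissues. Over all tested windows 0.562% were called higher and 15.0% lay above both. The stretch was not even: 1 Mb medians were 1.46 in leaf and 1.15 in root at 57 to 58 Mb, and 0.10 and 0.23 at 55 to 56 Mb and 0.20 and 0.22 at 61 to 62 Mb. At 60 to 61 Mb the leaf median was 2.19 against id1 and 0.09 against id4, and at 62 to 63 Mb it was 0.34 against id1 and 1.64 against id4.

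The stretch at 70 to 90 Mb lay higher by a median of 0.80 in leaf and 0.81 in root, but the id lines differed within it. Its summed level was 8676 CPM in 9d9a leaf and 8938 in root, 4072 and 4329 in id1, and 6016 and 6065 in id4. The median difference was 1.08 in leaf and 1.14 in root against id1, and 0.41 and 0.42 against id4. Although 139 of 197 windows lay above both lines in both tissues (15.0% over all tested windows), only 9 of 196 tested windows were called higher (0.562% over all). The test counts the spread between id1 and id4 as error. A further 3 were called lower, at 72.4, 74.1 and 86.0 Mb. The most distant of them, at 86.0 Mb, was named after its value was seen. There 9d9a had 1.64 CPM in leaf and 1.40 in root, id1 14.3 and 8.91, and id4 11.7 and 7.86 (log2 -2.78 ± 0.23, edgeR adjusted p = 0.000244). B73 had 1.57 and 1.06 CPM at this window, near 9d9a.

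**Figure D3:**
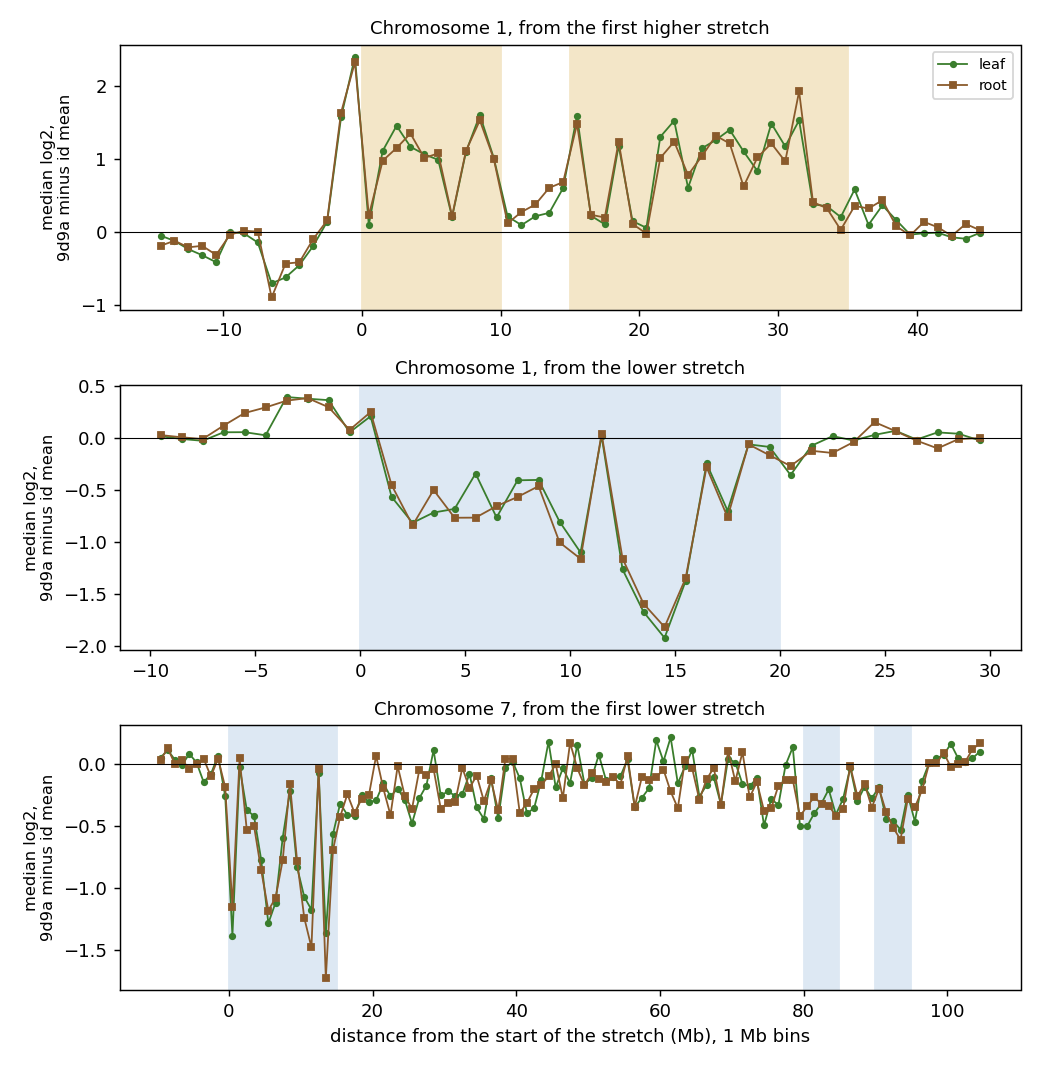
Median difference of 9d9a from the mean of id1 and id4 in 1 Mb bins (log2(CPM + 1) scale) against the distance in Mb from the start of the first higher stretch and of the lower stretch of chromosome 1 and of the first lower stretch of chromosome 7. Shading marks the stretches (tan higher, blue lower); leaf and root trace nearly the same course, and bins near 0 interrupt the stretches of 10 Mb or more.

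Before p1, at 25 to 48 Mb of chromosome 1 (a span chosen after seeing the data), no block met the criterion. By the median window 9d9a lay with id1: the difference was -0.04 in leaf and 0.00 in root against id1, and -0.33 and -0.28 against id4. The summed level went otherwise in root, with 21231 CPM in 9d9a, 10698 in id1 and 17475 in id4. In leaf it was 10103, 11246 and 10937 CPM. Single windows there were nonetheless far lower in 9d9a than in both id lines, with 13 of 224 tested windows called lower and 1 higher. At 34.9 Mb the 9d9a leaf library had 8.19 CPM and the root library 7.84, id1 120 and 124, and id4 154 and 140 (log2 -4.07 ± 0.15, edgeR adjusted p = 5.76e-06). At 35.5 Mb 9d9a had 4.68 and 6.72 CPM, id1 94.1 and 65.8, and id4 88.6 and 73.2 (log2 -3.78 ± 0.22, edgeR adjusted p = 0.00014). The window at 43.8 Mb was nearly empty in 9d9a, with 0 reads in leaf and 5 in root against 163 in the 4 id libraries. Its ratio of 9d9a to id reads was 0.067 (95% exact Clopper-Pearson interval 0.0215 to 0.16, which covers counting error only), and its call was lost without the 9d9a leaf library (log2 -3.00).

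The lower stretch of chromosome 1, from 225 to 245 Mb, had a summed level of 6588 CPM in 9d9a leaf and 6924 in root. The same windows held 9777 and 10430 CPM in id1 and 11095 and 11632 in id4. The median window was 0.59 lower in both tissues, 138 of 198 windows lay below both id lines in both tissues, and 70 of 197 tested windows were called lower. Over all tested windows 15.0% lay below both and 1.26% were called lower. The deepest 1 Mb was 239 to 240 Mb, with medians of -1.93 in leaf and -1.82 in root, while 236 to 237 Mb, inside the stretch, was at 0.02 and 0.04. The first 1 Mb, 225 to 226 Mb, went the other way, at 0.21 and 0.25. In leaf its median was 0.49 against id1 and -0.07 against id4. From 225 to 230 Mb id1 was itself lower than id4, by a median of -0.51 in both tissues; from 230 to 245 Mb the medians of id1 minus id4 lay between -0.09 and 0.05.

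The window at 241.3 Mb was the steadiest of the named windows in this stretch. It held 9.01 CPM in 9d9a leaf and 9.06 in root, 124 and 144 in id1, and 123 and 138 in id4 (log2 -3.87 ± 0.11, edgeR adjusted p = 1.46e-06). At 242.3 Mb 9d9a had 4.80 and 2.71 CPM, id1 50 in both tissues, and id4 44.4 and 43.3 (log2 -3.67 ± 0.20). Just beyond the stretch, at 245.3 Mb, 9d9a had 1.76 and 1.40 CPM and the id libraries 17.6 to 20.2 (log2 -3.55 ± 0.19), with edgeR adjusted p of 3.24e-05 and 2.28e-05 at these windows. The window at 237.3 Mb had 1 read in each 9d9a library against 66 in the id libraries, a ratio of 0.0662 (95% exact interval 0.00785 to 0.249), and its call was lost without either 9d9a library (log2 -3.83 and -3.70). A few windows in the stretch went the other way: 4 were called higher, at 233.1, 241.1, 241.6 and 243.3 Mb. At 233.1 Mb the 9d9a leaf library had 75.3 CPM and the root library 80.0 against 20.4 to 31.0 in the id libraries (log2 1.57 ± 0.16, edgeR adjusted p = 0.00142).

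The farthest of all lowered windows was alone, at 159.3 Mb of chromosome 1. In 9d9a it held 2.81 CPM in leaf and 1.77 in root, from 24 and 19 reads. In id1 it held 93.6 and 50.2 CPM, and in id4 66.5 and 50.5. The log2 change was -4.82 ± 0.20 (SE; counting error alone is 0.22), with an edgeR adjusted p of 7.85e-06. B73 had 60.9 CPM in leaf and 36.1 in root, on the side of the id lines. In the leaf libraries alone the call was lost (-4.83).

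On chromosome 7 the lower levels of 9d9a reached far beyond the 3 stretches. From 10 to 25 Mb the summed level was 3401 CPM in 9d9a leaf and 3368 in root, 5930 and 6368 in id1 and 5777 and 6106 in id4. The id lines were close to each other, with a median difference of -0.01 in leaf and -0.02 in root, and 9d9a was lower by a median of 0.78 and 0.81. In this stretch 71 of 145 tested windows were called lower, and 106 of 147 lay below both id lines in both tissues. The shares over all tested windows were 1.26% and 15.0%. The medians per Mb alternated: they were -1.38 in leaf and -1.15 in root at 10 to 11 Mb and -1.36 and -1.72 at 23 to 24 Mb, but -0.03 and 0.04 at 11 to 12 Mb and -0.07 and -0.04 at 22 to 23 Mb. At the low end, 8 to 9 Mb lay at 0.07 and 0.04 and 9 to 10 Mb at -0.26 and -0.19, with 3 windows called lower at 9.5, 9.8 and 9.9 Mb, before the stretch begins.

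From 25 to 105 Mb, a span chosen after seeing the data that runs from the end of this stretch to the end of the last one, the difference was smaller, with medians of -0.18 in leaf and -0.21 in root. Of its 80 bins of 1 Mb, 62 had a median below 0 in both tissues and 3 above 0 in both. Of its 792 windows, 346 lay below both id lines in both tissues and 60 above both, where the share over all tested windows was 15.0% in each direction. Of 777 tested windows 46 were called lower and 6 higher (1.26% and 0.562% over all). The summed level was 15207 CPM in 9d9a leaf and 15794 in root, against 18186 and 18493 in id1 and 17852 and 18106 in id4. The stretches at 90 to 95 Mb (medians -0.38 in leaf and -0.31 in root) and 100 to 105 Mb (-0.39 in both) were the parts that met the block criterion. Single 1 Mb bins elsewhere in the span were as low, such as 84 to 85 Mb (-0.495 in leaf and -0.377 in root) and 89 to 90 Mb (-0.497 and -0.421). From 105 Mb to the end of the chromosome the medians were 0.01 and 0.03, and of 711 tested windows 4 were called lower and 1 higher.

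From 10 to 105 Mb of chromosome 7, 9 windows were called higher against 117 lower. The 3 of largest change are named after their values were seen. At 33.7 Mb 9d9a had 15.5 CPM in leaf and 6.44 in root, id1 2.67 and 1.94, and id4 2.17 and 1.10 (log2 2.40 ± 0.24, edgeR adjusted p = 0.000818). At 88.3 Mb it had 7.02 and 3.92 CPM against 0.69 to 1.35 in the id libraries, and at 43.0 Mb 13.8 and 5.51 against 1.5 to 3.10, with log2 changes of 2.36 ± 0.30 and 2.12 ± 0.25 (edgeR adjusted p of 0.00356 and 0.00195). All 3 were at low levels in the id lines, while the raised window at 17.7 Mb, inside the stretch at 10 to 25 Mb, had 134 and 95.3 CPM in 9d9a (log2 0.72 ± 0.11, edgeR adjusted p = 0.0129). The others inside that stretch were at 12.1 and 18.2 Mb.

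The remaining stretches were differences from 1 id line. At 140 to 145 Mb of chromosome 10, 9d9a was higher than id1 by a median of 0.95 in both tissues and stood at 0.02 from id4 in both, and 1 of 50 tested windows was called. At 15 to 20 Mb of chromosome 2 it was higher than id4 by 0.59 in leaf and 0.76 in root and stood at 0.04 from id1 in both, with 0 of 50 called by edgeR. The end of chromosome 2, from 225 Mb, had the same form without meeting the criterion: the median against id1 was 1.13 in leaf and 1.03 in root, and that against id4 was -0.01 and 0.00. One window there was an exception, at 231.1 Mb, with 3.16 and 4.11 CPM in 9d9a against 16.1 to 22.7 in the id libraries (log2 -2.42 ± 0.16, edgeR adjusted p = 5.63e-05).

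The B73 libraries show which side of each difference departed from B73. In the 157 windows called lower inside the stretches the id mean was nearer to B73 than 9d9a was in 153 windows in leaf and 154 in root. Their median was -1.25 in leaf and -1.35 in root for 9d9a minus B73, and 0.03 and 0.01 for the id lines. In the 49 windows called higher inside the stretches 9d9a was nearer to B73 in 39 windows in each tissue, with medians of 0.17 and 0.12 for 9d9a and -0.99 and -1.13 for the id lines. These calls are grouped by their own direction, whatever the direction of the stretch. Thus the side away from B73 was mostly 9d9a among the lower calls and mostly the id lines among the higher calls. Not every higher stretch had both id lines away from B73. In leaf, the stretch of chromosome 2 had medians of -0.06 for id1 and -0.72 for id4 relative to B73. That of chromosome 10 had -0.85 for id1 and 0.01 for id4. Outside the stretches the higher calls were divided, with 9d9a nearer to B73 in 27 of 65 windows in leaf and 26 in root, while among 99 lower calls the id lines were nearer in 80 and 81. These 65 include the 12 higher calls at 53 to 55 Mb of chromosome 1. The medians of that span relative to B73 in leaf were 0.11 for 9d9a, -2.25 for id1 and -1.93 for id4.

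**Figure D4:**
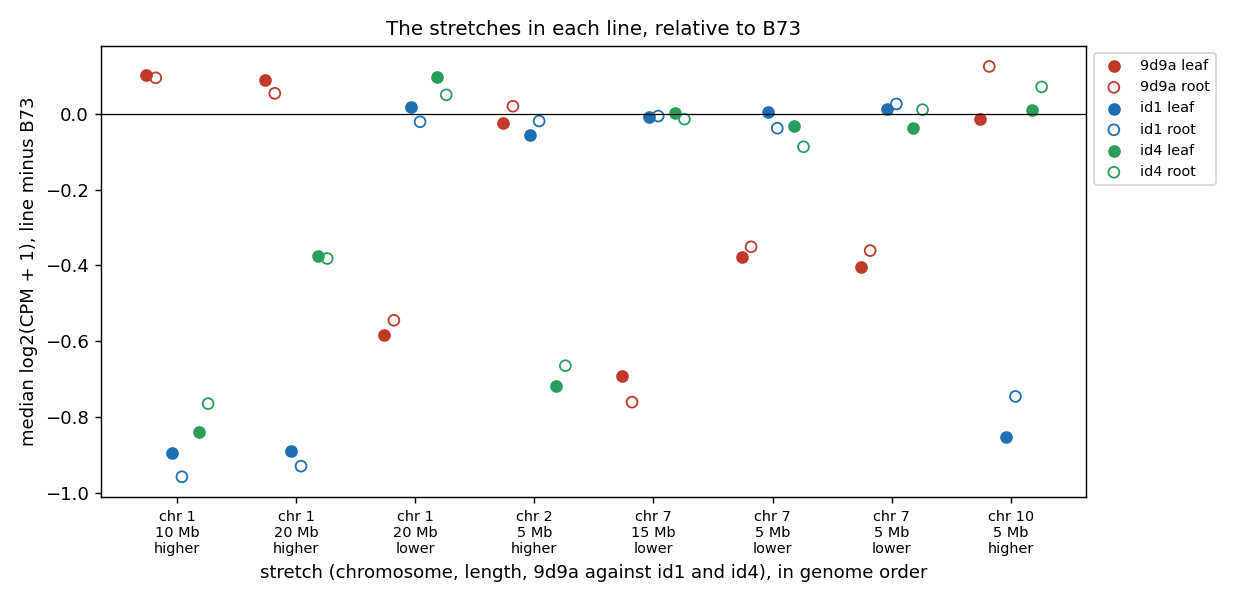
Median log2(CPM + 1) of each line minus B73 in the 8 stretches, in genome order (filled leaf, open root), each point a median over the 50 to 198 windows of the stretch. In the 4 lower stretches the 9d9a points lie between -0.76 and -0.35 with both id lines near 0, and in the 2 higher stretches of chromosome 1 the id points lie below 0 with 9d9a near 0.

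On the other 8 chromosomes 34 windows were called higher and 30 lower, of 15582 tested. Outside the stretches 0.407% of their 15482 tested windows were called, where over all tested windows 0.562% were called higher and 1.26% lower. Of the 30, 10 lay close together at 4.5 to 8.9 Mb of chromosome 2, with log2 changes of -1.18 to -0.42. Over the 50 windows from 4 to 9 Mb, a span chosen after seeing the data, the median difference was -0.27 in leaf and -0.41 in root, and 9d9a was lower than each id line (-0.31 and -0.43 against id1, -0.19 and -0.35 against id4). The 8 windows of largest change on these chromosomes are given here and above, chosen after their values were seen. Of the 6 raised windows on chromosome 6, 3 were among them. At 15.7 Mb the 9d9a leaf library had 54.2 CPM and the root library 36.9, against 12.0 to 14.0 in the id libraries (log2 1.81 ± 0.15, edgeR adjusted p = 0.000244). At 50.8 Mb it had 19.4 and 11 CPM against 2.69 to 3.70, and at 107.2 Mb 21.5 and 10.4 against 3.26 to 3.75 (log2 2.18 ± 0.23 and 2.12 ± 0.23; edgeR adjusted p of 0.00105 and 0.00154). B73 lay with the id lines at all 3, with 2.94 to 15.2 CPM.

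At 180.4 Mb of chromosome 5 the level was high on both sides, at 273 CPM in 9d9a leaf and 386 in root, 91.9 and 125 in id1 and 93.2 and 92.1 in id4, with B73 between them at 185 and 241 (log2 1.70 ± 0.12, edgeR adjusted p = 0.000265). On the same chromosome the window at 102.2 Mb was lower in 9d9a, with 4.80 and 3.55 CPM against 13.3 to 17.6 in the id libraries (log2 -1.86 ± 0.20, edgeR adjusted p = 0.00127). At 81.5 Mb of chromosome 9 the level was low, with 3.51 and 2.05 CPM in 9d9a against 0.37 to 1.38 (log2 1.70 ± 0.31, edgeR adjusted p = 0.0289). The window at 66.3 Mb of chromosome 9 was the 1 window outside chromosome 1 among the 10 most raised and the 10 most lowered. It had 4 reads in 9d9a leaf and 3 in root against 179 in the id libraries, a ratio of 0.0854 (95% exact interval 0.0339 to 0.18), and its call was lost without the 9d9a root library (log2 -2.98). B73 was also low there, at 0.81 and 0.90 CPM against 3.10 to 4.94 in the id libraries.

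A difference that depended on tissue was not found by edgeR. The side by tissue term called 0 of 20281 windows (0% of those tested). In edgeR 369 windows had an unadjusted p under 0.05, fewer than evenly spread p-values would put there. DESeq2 called 1 window. That window lay at 19.6 Mb of chromosome 7, inside the lower stretch. It held 85.6 CPM in 9d9a leaf against 32.7 in id1 and 27.0 in id4, and 27.6 in 9d9a root against 40.7 and 42.5, so that 9d9a was above both lines in leaf and below both in root. The term was -2.11 (log2, root minus leaf), with an adjusted p of 1 in edgeR and 0.00184 in DESeq2, and 2 residual degrees of freedom limit this test. The other 4 windows of smallest p had the same crossing form, as at 141.7 Mb of chromosome 5, with 2.22 CPM in 9d9a leaf against 4.45 and 2.48 and 27.8 in 9d9a root against 4.94 and 5.12, and at 288.9 Mb of chromosome 1, with 22.9 against 33.4 and 34.7 in leaf and 254 against 201 and 189 in root. The remaining windows, at 82.4 Mb of chromosome 10 and 15.8 Mb of chromosome 6, also had an adjusted p of 1 in edgeR.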

How the data were processed

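Small RNA was counted in leaf and root of 14-day-old maize seedlings. The deposited tables hold whole-number counts, namely read totals per 100 kb window, which the authors left unnormalised as far as the files show. The submitters' processing notes list Bowtie. Its settings, the build, any length filter and the handling of multiply matching reads are stated in no source used here. A read counted at every match, or only at unique ones, changes the level of repeat-rich windows. Unlisted windows were taken as 0.

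Counts were tested across all windows with edgeR 4.0.16 in R 4.3.3 (TMM, filterByExpr at its defaults, robust quasi-likelihood fit, Benjamini-Hochberg at 0.05) on tissue and side, with 3 residual degrees of freedom and a common biological coefficient of variation of 0.158. The SE of a log2 change comes from the F statistic and can be smaller than counting error at few reads. The tests were also run on simulated counts, drawn independently for each library around a common mean profile. That simulation held no difference between id1 and id4, so it cannot show how libraries that share a line affect the p-values. Alternatives were DESeq2 1.42.0, other scalings, no filter, a line design, B73 added, libraries left out and tissues apart. CPM of B73, 714 and 714H use TMM factors on the same reference library.

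Named windows were the 10 of largest change in each direction among called windows with 9d9a beyond both id lines in both tissues, the 5 of smallest p for tissue dependence, every stretch, and the p1 window of chromosome 1. By a further rule, 0 windows had under 1 CPM in both 9d9a libraries and over 5 in all id libraries, and 0 the reverse. Members, stretches and rules were chosen with earlier results of these data known. Intervals cover counting error only.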

Additional observations from a re-analysis of the deposited data

Results flagged for a closer look

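The window at 19.6 Mb of chromosome 7 was noted because its 9d9a difference had opposite directions in leaf and root, and DESeq2 called the difference between the tissues (log2 -2.10, root minus leaf, adjusted p = 0.00184; adjusted p = 1 in edgeR).

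At the p1 window of chromosome 1, the one that ends at 48.2 Mb, the 714 and 714H leaf libraries, which no comparison here used, had 1382 and 587 CPM, above the 24.3 CPM of B73 leaf and the 33.7 CPM of 9d9a leaf. 714 carries P1-ww714 and 714H carries that allele over B73, and each is a single library with no replicate.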

How the results depend on the processing

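DESeq2 size factors, library totals, DESeq2 itself, no filter on low counts and the addition of B73 gave 107 to 164 windows higher and 247 to 365 lower, within 1.5 times of 114 and 256. Designs that leave the spread between id1 and id4 out of the error called more: 872 higher and 759 lower with tissue and line, 825 and 796 against id4 alone, and 837 and 783 against id1 alone. Tissues apart called fewer, 46 higher and 102 lower in leaf and 46 and 124 in root. Leaving out 1 library gave 36 to 113 higher and 99 to 244 lower. All 370 called windows kept their sign in all 16 alternatives. Tissue dependence was called at 1 window by DESeq2 and at 0 otherwise, with 369 to 411 windows at an unadjusted p under 0.05 in edgeR and 52 in DESeq2. At the p1 window of chromosome 1 the log2 change was -5.04 to -4.25 without 1 library. Of the 20 named windows, 7 others lost the threshold without 1 library and none reversed. Blocks higher in 9d9a summed to 65 Mb against id1 alone, where the criterion no longer asks for id4, and otherwise to 30 to 50 Mb, with 40 to 55 Mb lower. The tissue and line design pairs leaf and root by line, and the labels give no replicate numbers for any further pairing. Depth limits windows under about 2 CPM, where 7 of 1900 were called.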
